A study of Schmidtea mediterranea with 36 samples.

Results

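Knockdown of the homeobox gene *alx-3* was examined in planarian tail fragments at 72 h post amputation (HPA), when a fragment that had lost its head is rebuilding one and resetting its body axis. The comparison holds 6 of the 36 libraries of the series, namely the 3 *alx-3(RNAi)* and the 3 *control(RNAi)* libraries of this time, and it was read across all 62882 transcripts of their table. Both groups were asexual *Schmidtea mediterranea* of the clonal strain CIW4, and both had eaten RNAi food 9 times before being cut behind the pharynx. The control food carried double-stranded RNA of *GFP*, a gene planarians lack, so the groups share feeding, injury and regeneration time. Feeding lowers a transcript without removing it, and all cells of the fragment were extracted together. Intact animals and tail fragments at 0.5, 24 and 48 HPA served as points of comparison, and 6 HPA was not used here.

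Planarians rebuild any missing part from stem cells called neoblasts, which express *piwi-1*. Muscle cells carry the positional signals that tell new tissue where it lies. Wnt signals mark the tail, and secreted Wnt inhibitors such as *notum* and *sfrp-1* mark the head, so a tail fragment that regenerates a head must switch on the anterior set and shrink the posterior set. In the wider animal, epidermal cells mature through a series of stages marked first by *prog* genes and later by *AGAT* genes.

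The 3 knockdown libraries held 260.5, 281 and 364 normalized counts of *alx-3*, against 1007, 1053 and 1062 in controls. No *alx-3(RNAi)* library came near a control, and the mean level was 29.0% of the control mean. Its log2 fold change was −1.80 (SE 0.113, adjusted p = 6.84e-08, limma), and a two-sided exact permutation test over the 6 libraries gave p = 0.1, the smallest value that 3 against 3 allow. Fold changes are on the scale of log2(normalized count + 1), which understates changes of low transcripts. The posterior markers *wntP-2*, *sp5* and *Fzd-d* were measured in all 6 libraries, and the posterior hox gene *Post1* was at 10.3 to 27.0. Because the values are not divided by length, levels of different genes were not compared with each other.

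Of 33399 transcripts that reached a normalized count of 10 in at least 3 libraries, 4371 (13.1%) were called at an adjusted p under 0.05 by limma. Of these, 3495 (10.5%) were higher and 876 (2.62%) lower in *alx-3(RNAi)*. Every knockdown library lay above every control for 6457 transcripts (19.3%) and below for 3761 (11.3%). The falls were fewer and larger. The median called rise was 0.37 and the median called fall −0.66 on the log2 scale, and of the 397 calls of at least 2-fold 148 were rises and 249 falls. Most rises lay among abundant transcripts. Above a mean normalized count of 1000, 31.2% of 7385 tested transcripts were called higher and 2.71% lower, whereas between 20 and 50 counts the shares were 0.663% and 2.22%. This level dependence is the background for every gene group given here, because transcripts whose IDs carry a gene name are abundant, with a median of 1761 counts against 66.0 over all tested. Of 256 tested transcripts with a name, 59 rose and 19 fell.

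**Figure D1:**
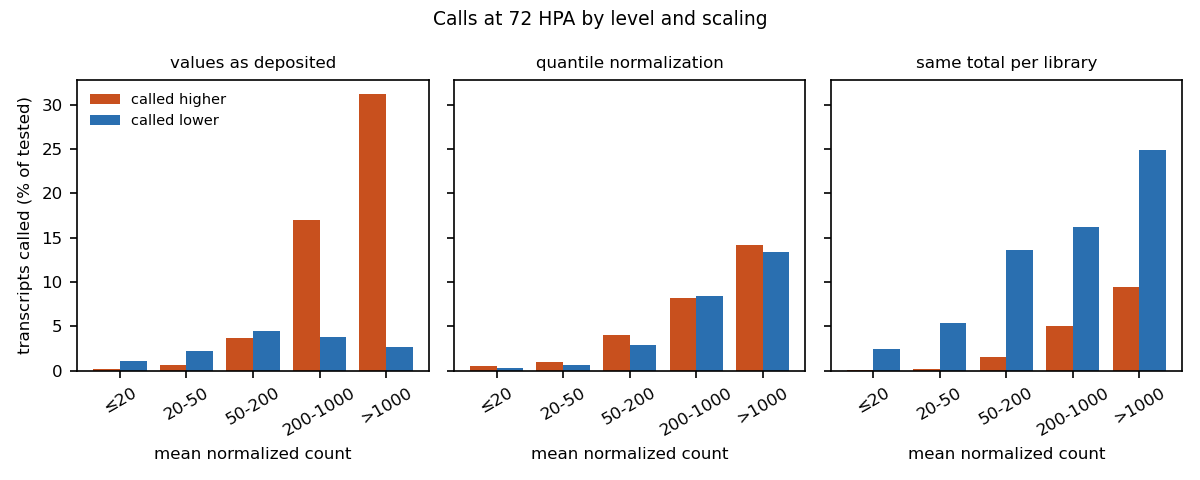
Share of tested transcripts called higher (orange) and lower (blue) in *alx-3(RNAi)* at 72 HPA, in % of those tested, by mean normalized count over the 6 libraries. The left panel uses the values as deposited (31.2% higher and 2.71% lower above 1000 counts), the middle panel quantile normalization (14.2% and 13.4%), and the right panel libraries rescaled to the same total (9.47% and 24.8%).

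The split between rises and falls moved with the scaling. The share of calls that were higher was 80.0% with the deposited values, 69.8% with edgeR on reads recovered from them, 52.2% with quantile normalization and 21.1% after all libraries had been rescaled to a common sum (the same total), which moved the median log2 fold change of all tested transcripts from 0.01 to −0.20. The summed normalized count was 54.5 to 56.8 M in controls and 60.3 to 67.2 M in *alx-3(RNAi)* libraries. Ribosomal RNA transcripts held 12.4 ± 0.312% of it in controls and 14.3 ± 0.896% after knockdown (mean ± SD, n = 3 libraries, exact permutation p = 0.1), and their part in the split was not tested. *alx-3(RNAi)* replicate 2 stood nearest the controls, and 8117 transcripts were called without it, against 1911 to 2833 without any other single library. Calls of at least 2-fold depended less on scaling, since 360 of the 397 kept direction and call at the same total, 371 with edgeR and 265 with quantile normalization. Leaving out *alx-3(RNAi)* replicate 2 kept 375 of them, and leaving out any other library kept 196 to 250. DESeq2 kept 188, but it sets no adjusted p for transcripts of low mean count, which then count as not kept. Of the 397, 167 had a mean of at least 50. None of the 397 turned in these fits. When limma was run without a variance trend, 40 transcripts were called, 37 of them among the 4371, and *alx-3* was then the only named transcript called.

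Several genes of the anterior pole and head fell in *alx-3(RNAi)* tail fragments. Of 11 anterior genes tested, 6 fell, 5 were not called, none rose, and the list median was −0.33 against 0.01 for all tested transcripts. Among the latter 2.62% were called lower. *notum*, which encodes a secreted enzyme that inactivates Wnt proteins and marks the anterior pole, had 191, 362 and 435 normalized counts in controls and 132, 118 and 112 after knockdown. Its range in controls was wide, yet all 3 *alx-3(RNAi)* libraries lay below the lowest of them, at 36.6% of the control mean (log2 fold change −1.36, SE 0.219, adjusted p = 0.000846, limma). In such bulk samples, fewer expressing cells and less RNA per cell cannot be told apart.

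*sfrp-1*, a secreted Frizzled-related Wnt antagonist of the head tip, was at 341, 462 and 491 in controls, against 233, 182 and 229 after knockdown (−0.99, SE 0.143, adjusted p = 0.000343, limma). The groups did not overlap. The head-expressed Wnt gene *wnt2-1* went from 581, 697 and 779 to 443, 362 and 442 (−0.72, SE 0.117, adjusted p = 0.000937), again with no overlap. *ndk* (*nou-darake*), an FGF receptor-like gene that keeps brain tissue within the head, went from 673, 1172 and 1296 to 648, 452 and 565 (−0.87, SE 0.184, adjusted p = 0.00523). Its lowest control and highest knockdown library differed by less than the spread inside either group. Its relative *ndk-4* also fell (−0.68, adjusted p = 0.0450), but its groups overlapped, with 262, 423 and 511 in controls and 332, 193 and 213 after knockdown. *sfrp2*, a further Frizzled-related gene, fell from 786 ± 22.2 to 625 ± 31.5 (−0.33, adjusted p = 0.0159).

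The anterior transcription factor gene *FoxD1* was not called. It had 126, 137 and 117 counts in controls, against 147, 137 and 183 after knockdown (0.29, SE 0.152, adjusted p = 0.239). *follistatin*, which encodes an activin inhibitor, was at 840.2 ± 41.2 and 785 ± 33.9 (−0.10, adjusted p = 0.483), and *ndk-3* at −0.27 (adjusted p = 0.0618). The 2 remaining members lay at 0.03 and 0.27, not called, though the latter, *wnt11-6*, was called higher without control replicate 1 (0.42). With each library at the same total or with quantile normalization 8 of the 11 were called lower, *follistatin* and *ndk-3* among them, and none higher. These settings also raised the share called lower over all tested transcripts, to 11.97% and 5.003%. The 11 genes had a median count of 706. Between 200 and 1000 counts, 16.2% of tested transcripts were called lower at the same total and 8.41% with quantile normalization. *ndk-3* was also called lower with edgeR, with DESeq2, at a mean of at least 50, with sample quality weights and without *alx-3(RNAi)* replicate 3. The *ndk-4* call ended with DESeq2 on recovered reads, with sample quality weights and without control replicate 2 or 3 or *alx-3(RNAi)* replicate 2 or 3, with values of −0.96 to −0.48 over the fits that left out 1 library. That of *sfrp2* ended without control replicate 2 or 3 or *alx-3(RNAi)* replicate 3 (−0.37 to −0.30).

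**Figure D2:**
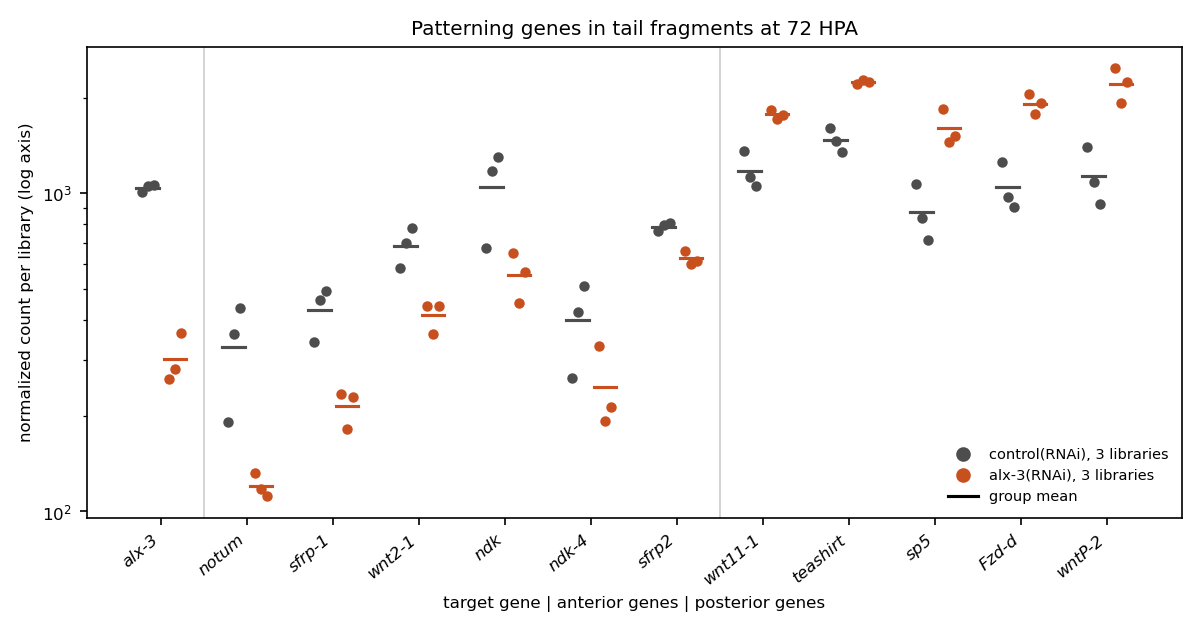
Normalized count (log axis) of *alx-3*, the 6 anterior genes called lower and the 5 posterior genes called higher, with 1 point per library at 72 HPA and a bar at each group mean (grey, 3 *control(RNAi)*; orange, 3 *alx-3(RNAi)*; points of a group in the order of replicates 1 to 3). The groups are apart for every gene but *ndk-4*, and control replicate 1 is the control nearest to the knockdown libraries for each anterior and each posterior gene.

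Several posterior genes rose in the same libraries. Of 9 posterior genes tested 5 rose, 4 were not called and none fell, with a list median of 0.61. The share called higher was 10.5% over all tested transcripts and 31.2% over those above 1000 counts. *wntP-2*, a posterior Wnt ligand gene whose domain shrinks when a tail makes a head, had 1399, 1088 and 923 normalized counts in controls and 2470.2, 1925 and 2235 after knockdown. The lowest *alx-3(RNAi)* library was above the highest control, and the mean was 194% of control (0.97, SE 0.123, adjusted p = 0.000117, limma). *sp5*, a transcription factor gene switched on by Wnt signals, went from 1074, 836 and 716 to 1835, 1454 and 1514 (0.88, SE 0.123, adjusted p = 0.00027). *Fzd-d*, which encodes a Frizzled Wnt receptor, went from 1257, 972 and 909 to 2051, 1772 and 1922 (0.88, SE 0.104, adjusted p = 6.88e-05). Neither gene had overlapping groups.

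*teashirt*, a zinc finger gene of the Wnt-dependent posterior program, had 1609, 1463 and 1349.5 counts in controls, against 2209, 2278 and 2232 after knockdown (0.61, SE 0.0759, adjusted p = 0.000109). The tail Wnt gene *wnt11-1* went from 1358, 1123 and 1055 to 1833, 1716 and 1765 (0.60, SE 0.0892, adjusted p = 0.000473). Both genes varied less among the knockdown libraries than among the controls. All 5 rises stayed called with each library at the same total, with quantile normalization, with edgeR and without any single library.

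The pole gene *wnt1*, which is also induced at wounds, was not among the rises. It had 60.5, 50.4 and 33.0 counts in controls and 45.0, 20.1 and 28.2 after knockdown (−0.64, SE 0.311, adjusted p = 0.196), with overlapping groups. *wntP-3* (0.12, adjusted p = 0.575) was not called, and *Post1* (0.81, SE 0.370, adjusted p = 0.171) was not called either, although its 3 knockdown libraries (25.3, 13.7 and 27.0) were above its 3 controls (12.1, 10.3 and 12.6). The remaining member was at 0.18, not called.

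Among the 3 controls, replicate 1 had the lowest count of all 6 anterior genes called lower and the highest count of all 5 posterior genes called higher. Leaving it out gave log2 fold changes of −1.71 for *notum*, −1.15 for *sfrp-1*, −1.17 for *ndk*, 1.13 for *wntP-2*, 1.04 for *sp5* and 1.02 for *Fzd-d*, each further from 0 than with all 6 libraries. The difference between the controls in these genes therefore ran in the same direction as the difference between the groups.

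The posterior effects were not seen at every time. At 24 HPA the effects on *wntP-2*, *sp5*, *Fzd-d*, *wnt11-1* and *teashirt* were −0.04, −0.05, −0.04, 0.00 and −0.08. All 5 differed from 72 HPA in a limma interaction test, by 1.02 (adjusted p = 0.0143), 0.93 (0.0237), 0.92 (0.0143), 0.59 (0.0461) and 0.69 (0.0049). The 5 genes were taken for their calls at 72 HPA, a choice that favours such a difference. These values are on the deposited scale, where 100 transcripts differed from 24 HPA, against 45 at the same total and 51 with quantile normalization. At 48 HPA the effects were 0.31, 0.59, 0.74, 0.69 and 0.19, of which *sp5*, *Fzd-d* and *wnt11-1* were called, and none differed from 72 HPA. Against intact animals the effect on *sp5* was higher at 72 HPA by 0.85 (adjusted p = 0.0385) and that on *teashirt* by 1.28 (0.0398), the effect on *teashirt* in intact animals being −0.68. The differences for *wntP-2* (0.80, adjusted p = 0.0779), *Fzd-d* (0.71, 0.0534) and *wnt11-1* (0.31, 0.407) were not called.

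For the anterior genes the difference between times was not called. *notum* had effects of −0.30, −0.98, −0.87, −1.36 and −0.01 at 0.5, 24, 48 and 72 HPA and in intact animals, and was called at 24 and 72 HPA. *sfrp-1* had −1.05, −0.06, −0.74, −0.99 and −0.29 in the same order, called at 72 HPA alone. The standard error of *sfrp-1* at 0.5 HPA was 0.519, and its effect there was not called (adjusted p = 0.340). The effect on *sfrp-1* at 72 HPA minus that at 24 HPA was −0.94 (SE 0.262, adjusted p = 0.121). For *notum* the difference from intact animals was −1.35 (SE 0.318, adjusted p = 0.0724).

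**Figure D3:**
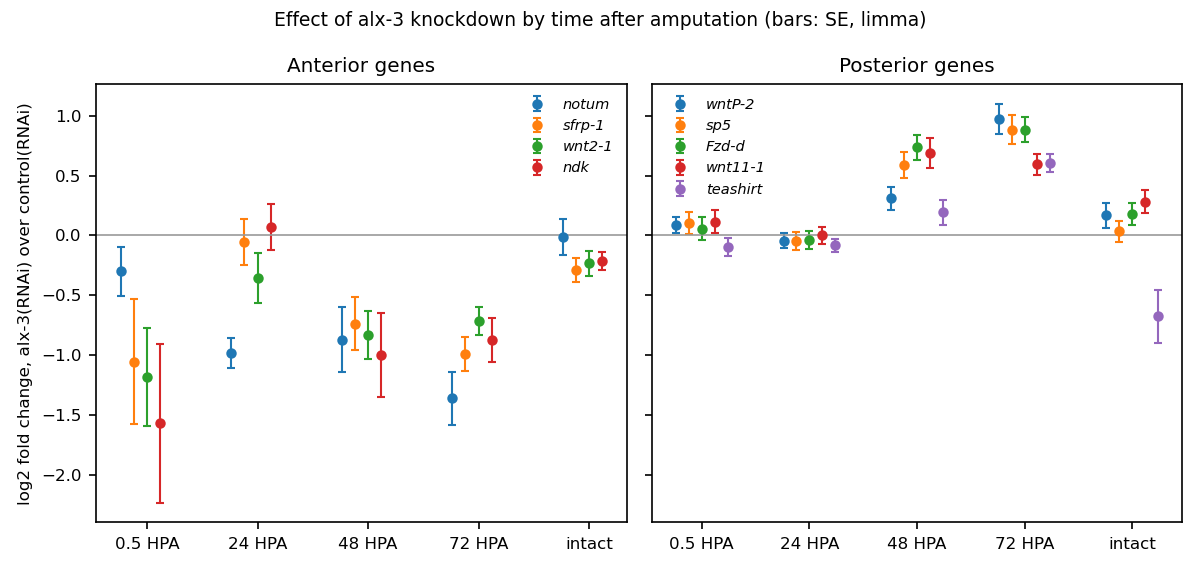
Effect of *alx-3* knockdown, as log2 fold change against controls (points), with its SE from limma (bars) for 4 anterior genes (left) and the 5 posterior genes called higher at 72 HPA (right), each time fitted in its own table of 3 against 3 libraries. The posterior genes lie between −0.08 and 0.00 at 24 HPA and between 0.60 and 0.97 at 72 HPA, while *notum* lies at −0.98 at 24 HPA and −1.36 at 72 HPA.

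Over all transcripts, the effect at 72 HPA differed from that at 0.5 HPA for 276 of 30927 (0.892%), at 24 HPA for 100 of 29950 (0.334%), at 48 HPA for 31 of 31105 (0.0997%) and in intact animals for 195 of 30486 (0.64%), all by limma interaction. On the deposited scale the effect was higher at 72 HPA in 256, 87, 29 and 184 of these. This number moved with the scaling. At the same total it was 171 of 223 against 0.5 HPA, 25 of 45 against 24 HPA and 108 of 158 against intact animals. The comparison with 48 HPA had no call with each library at the same total or with quantile normalization, where 2188 and 2300 transcripts had an unadjusted p under 0.05. Effects differing from 0.5 HPA, 24 HPA and intact animals at once were called for 25 transcripts, all higher at 72 HPA, and the 3 of them with a name were *sp5*, *teashirt* and *tr5_12233*. Within the other times the groups differed for 675 transcripts at 0.5 HPA (2.03%), 2241 at 24 HPA (7.29%), 1123 at 48 HPA (3.47%) and 288 in intact animals (0.885%). Of the 4371 calls at 72 HPA, 99 were called in the same direction at all 4 of these times, 50 higher and 49 lower, and 2804 at none of them, which is no test of a difference.

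Of 9 genes of Wnt secretion and transduction 2 rose and 1 fell, with a median of 0.08, against 31.2% higher and 2.71% lower over all transcripts above 1000 counts. *TCF-3*, one of the planarian genes for the DNA-binding partner of β-catenin, had 40.9, 42.4 and 43.7 counts in controls and 23.4, 18.3 and 21.4 after knockdown (−0.98, SE 0.260, adjusted p = 0.0203). The groups were far apart, but the transcript was low, and its call ended with quantile normalization and without any one of the controls (−1.06 to −0.89 over the fits without 1 library). *porcnA*, a homolog of the acyltransferase porcupine that is expressed in the gut, rose from 24241 ± 485 to 34430.0 ± 2705 (0.50, adjusted p = 0.000132). The kinase gene *nemo* rose by 0.25 (adjusted p = 0.0114), a call that ended at the same total, with quantile normalization and without control replicate 1 or 3 or *alx-3(RNAi)* replicate 1 (0.23 to 0.27). *Bcat-1*, the β-catenin gene of Wnt signaling, was at 15527 ± 241 in controls and 16366 ± 643 after knockdown (0.08, SE 0.0570, adjusted p = 0.430), not called. At the same total it was called in the other direction (−0.13, adjusted p = 0.0487), with adjusted p of 0.0487 to 0.834 over all settings.

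The TGF-β ligand gene *activin* rose. Its 3 controls held 1609, 1786 and 1678 counts and its 3 *alx-3(RNAi)* libraries 3847, 3199.8 and 3202 (1.01, SE 0.0803, adjusted p = 1.34e-06). The mean after knockdown was 202% of the control mean. None of the other 3 tested genes of its list, *follistatin* among them, was called, and these lay between −0.10 and 0.04. The effect on *activin* was 0.51, 0.80 and 0.65 at 0.5, 24 and 48 HPA, called each time, and 0.48 in intact animals (adjusted p = 0.116). No difference from 72 HPA was called.

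Notch genes and regulators that planarians induce at wounds, kept as 1 list, moved in both directions. Of 6 tested 2 rose and 1 fell, against 10.5% and 2.62% over all tested transcripts. *delta-1*, a Notch ligand gene, had 25.2, 59.5 and 49.5 counts in controls and 115, 73.1 and 129 after knockdown (1.27, SE 0.287, adjusted p = 0.00813). *runx-2* rose from 1298, 1553 and 1557 to 2375, 1769 and 2544 (0.59, SE 0.113, adjusted p = 0.00295), while *runx-1* fell from 127, 170.5 and 139 to 79.7, 70.4 and 87.7 (−0.86, SE 0.168, adjusted p = 0.00325). These 2 genes encode transcription factors with a Runt domain, and neither had overlapping groups. *runx-2* had effects of −0.36 at 0.5 HPA and −0.58 in intact animals, and its effect at 72 HPA was higher than these by 0.95 (adjusted p = 0.0110) and 1.17 (0.00579). The other 3 tested members of the list were not called and ran from −0.29 to 0.82.

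Many genes of the epidermal lineage were called higher. Of 11 *prog-1* genes, markers of early epidermal progeny, 8 rose, 3 were not called and none fell (median 0.43), and all 7 *prog-2* genes rose (median 0.54). All 5 *AGAT* genes, which mark later progeny, also rose (median 0.32). In the same class of abundance, above 1000 counts, 31.2% of all tested transcripts were called higher, and 10, 5 and 4 members of the 3 families belonged to that class. Family members share sequence, so reads may have been divided between near-identical transcripts and the members are not independent.

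The largest rise of the *prog-2* family was that of *prog2c*, which had 32785, 29526 and 29197 counts in controls and 47356, 41204 and 50233 after knockdown (0.60, SE 0.0741, adjusted p = 0.000101). In the *prog-1* family it was that of *prog-1f*, from 806, 916 and 862 to 1466, 1212 and 1435 (0.67, adjusted p = 0.000189). For both of these genes *alx-3(RNAi)* replicate 2 was the lowest knockdown library and still lay above every control. Their effects at 72 HPA were 0.01 above those in intact animals, a difference called for neither. *prog-2* itself, at 202 ± 14.5 and 276 ± 22.2, rose by 0.45 (SE 0.120, adjusted p = 0.0214), and its effect was smaller than in intact animals by 1.29 (interaction, adjusted p = 0.0385). *AGAT5* had the largest rise of its family, from 116, 164 and 125 to 269, 205 and 280.5 (0.90, adjusted p = 0.00183). The other 4 *AGAT* genes rose by 0.29 to 0.40.

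The regulators and the filament gene of this lineage moved in the same direction. *vim-1*, an intermediate filament gene of late epidermal progeny, went from 11716, 12557 and 12907 to 18261, 19088 and 18569 (0.59, SE 0.0589, adjusted p = 1.59e-05). *soxP-3* and *p53*, transcription factor genes of the stem cells that make epidermis, rose by 0.58 (adjusted p = 0.000373) and 0.37 (0.0014). All 3 stayed called at the same total, with quantile normalization and with edgeR. The effect on *soxP-3* at 24 HPA was −0.03 and differed from that at 72 HPA by 0.61 (adjusted p = 0.0204). At the same total, 5 *prog-1*, 5 *prog-2* and 2 *AGAT* genes were still called higher, and 1 *prog-1* gene was called lower.

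**Figure D4:**
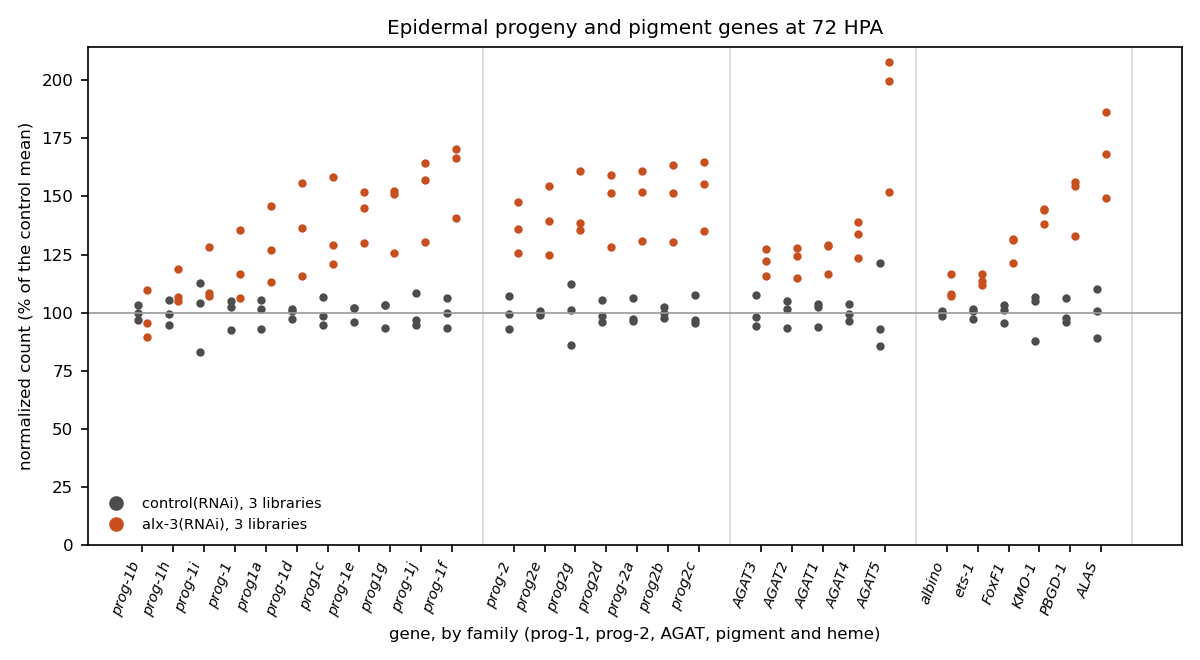
Normalized count of each tested *prog-1*, *prog-2*, *AGAT* and pigment or heme gene in each 72 HPA library, in % of the mean of the 3 controls for that gene (grey, *control(RNAi)*; orange, *alx-3(RNAi)*; 3 points each). All 3 knockdown points lie above all 3 controls for 8 of 11 *prog-1*, 7 of 7 *prog-2*, 5 of 5 *AGAT* and 6 of 6 pigment and heme genes. The share over all tested transcripts is 19.3%.

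Pigment and heme synthesis showed the same direction, with 5 of 6 genes called higher, none lower, and a median of 0.44. All 6 had mean counts above 1000, a class in which 31.2% of all tested transcripts were called higher. *ALAS*, which encodes the first enzyme of heme synthesis, had 7089.5, 8790.4 and 8014 counts in controls and 14836, 11908 and 13406 after knockdown (0.75, SE 0.0848, adjusted p = 4.85e-05). *PBGD-1*, whose enzyme acts later in the same pathway, went from 17249 ± 943 to 25512 ± 2215 (0.56, adjusted p = 9.9e-05), and *KMO-1*, of the kynurenine branch that feeds body pigment, from 1582 ± 164 to 2253 ± 55.8 (0.52, adjusted p = 0.000642). The groups were apart in all 3 genes. *FoxF1*, a transcription factor gene of the pigment and cathepsin-positive lineages, rose by 0.36 (adjusted p = 0.00282) and *ets-1* by 0.19 (adjusted p = 0.0433). *albino* was at 0.15 (adjusted p = 0.155). The *FoxF1* call ended at the same total, where *ets-1* and *albino* turned sign (−0.0161 and −0.0614).

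After the low *nhr-2*, *rapunzel-1* had the largest rise among called transcripts with a name, from 4032, 4852 and 3902 to 12199, 8952 and 10191 (1.29, SE 0.0992, adjusted p = 1e-06). The lowest knockdown library lay well above the highest control, and the effect was larger than in intact animals by 1.11 (interaction, adjusted p = 0.0102). *tr5_12233*, a transcript without an assigned role here, went from 1004, 747 and 666 to 1977, 1506 and 1719 (1.12, SE 0.127, adjusted p = 5e-05), with control replicate 1 the highest control as for the posterior genes. Its effect was −0.09 at 24 HPA and differed from that at 72 HPA by 1.21 (adjusted p = 0.00496). *lactb*, named for a β-lactamase-like protein of mitochondria, rose from 258, 490.2 and 387 to 869, 516 and 865 (0.99, SE 0.204, adjusted p = 0.00446), with *alx-3(RNAi)* replicate 2 close to the highest control. The gluconeogenic enzyme gene *pepck* rose by 0.56 (adjusted p = 0.000163). Of 8 metabolic enzyme genes, which include *lactb*, *ALAS*, *PBGD-1* and *KMO-1*, 5 rose and 1 fell, *AK1* (adenylate kinase, −0.51, adjusted p = 0.0205). Above 1000 counts, where 6 of the 8 lie, 31.2% of all tested transcripts were called higher.

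Among 22 tested nuclear hormone receptor genes 3 rose and 1 fell, and the median was 0.11. Of all tested transcripts, 10.5% were called higher and 2.62% lower, and above 1000 counts, where 11 of the 22 lie, 31.2% and 2.71%. All knockdown libraries lay above all controls for 13 of the 22 and below for 3. The shares over all tested transcripts were 19.3% and 11.3%. *nhr-2* stood out by size but was low, with 14.9, 10.3 and 9.71 counts in controls and 28.1, 53.9 and 42.9 after knockdown (1.73, SE 0.335, adjusted p = 0.00312). Its knockdown libraries were all above the controls, and its effect differed from that at 24 HPA (−0.49) by 2.22 (adjusted p = 0.0395). *nhr-22* (0.38) and *ROR* (0.26) rose and *nhr-14* (−0.30) fell.

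The neural and homeobox transcription factors, the class to which *alx-3* belongs, were mostly not called. Of 29 tested, 1 rose and 2 fell, 1 of the latter being *alx-3* itself. The shares over all tested transcripts were 10.5% and 2.62%. The list median was −0.09, and all knockdown libraries lay below all controls for 9 members (11.3% over all transcripts) and above for 5 (19.3%). *PAX6-2*, a homolog of the eye and brain gene Pax6, had 69.9, 74.4 and 85.5 counts in controls and 47.8, 60.3 and 34.9 after knockdown (−0.70, SE 0.224, adjusted p = 0.0495), a call that ended with edgeR, with quantile normalization and without any library except *alx-3(RNAi)* replicate 2 (−0.89 to −0.50). *ovo*, which specifies eye cells, had 17.7, 13.7 and 19.4 counts and then 6.56, 9.14 and 6.76 (−1.08, SE 0.401, adjusted p = 0.0894). *olig2* was at 50.3, 37.8 and 51.5 and then 21.6, 22.9 and 34.9 (−0.81, SE 0.271, adjusted p = 0.0597). In both the groups were apart and the test did not pass, at depths of 6.56 to 51.5 counts. Both were called lower at the same total and with sample quality weights, and *olig2* also with edgeR and without *alx-3(RNAi)* replicate 3. *DLL-2*, a Distal-less homeobox gene, rose from 569, 715 and 647 to 839, 789.8 and 747 (0.30, adjusted p = 0.0484), which ended at the same total, with quantile normalization and with edgeR. The list has 5 more members that did not reach the count minimum and were not tested.

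Further falls were those of *titin* and 2 *spondin* genes. The giant muscle protein gene *titin* had 369, 368 and 621 counts in controls, against 168, 182 and 235 after knockdown (−1.18, SE 0.179, adjusted p = 0.000516). Its groups did not overlap, and the effects at 0.5, 24 and 48 HPA were −1.15, −1.37 and −0.81, the last not called. In intact animals the effect was −0.76 (SE 0.799, adjusted p = 0.653, limma), not called either. The other tested muscle gene, *myoblast_city*, was at 0.06 and not called. In the *spondin* family of extracellular matrix proteins 2 of 6 tested members fell and none rose, against 2.62% lower over all tested transcripts. The abundant one, *spondin_SmedASXL_017661*, went from 40227, 42818 and 39218 to 22204, 31913 and 27688 (−0.59, SE 0.0956, adjusted p = 0.00085). The low one, *spondin_smed009579*, went from 23.2, 31.0 and 20.4 to 7.49, 13.7 and 7.90 (−1.30, SE 0.374, adjusted p = 0.0313), and its call ended with quantile normalization and without any one of 5 libraries (−1.55 to −1.14).

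Stem cell genes were mostly not called on the deposited scale. Of 9 neoblast genes 1 was called, *soxP-1*, a Sox-family gene needed for stem cell maintenance, from 3412, 3712 and 3761 to 2579, 2638 and 3426 (−0.34, SE 0.0924, adjusted p = 0.0219). Its groups overlapped through *alx-3(RNAi)* replicate 3, and the call ended without control replicate 2 or 3 or *alx-3(RNAi)* replicate 1 (−0.47 to −0.27). *piwi-1* was at 59082 ± 2470.2 in controls and 55634 ± 3489 after knockdown (−0.09, SE 0.0634, adjusted p = 0.405). None of 7 argonaute and piwi genes (median −0.06) or of 6 cell cycle and replication genes (median −0.01) was called. At the same total, where the median of all tested transcripts was −0.20, 8 neoblast genes and 6 argonaute and piwi genes were called lower, with list medians of −0.29 and −0.27, and with quantile normalization 6 and 4 were. All members of these lists had mean counts above 1000. In that class 24.8% of all tested transcripts were called lower at the same total and 13.4% with quantile normalization. With the deposited values 31.2% of that class were called higher and 2.71% lower.

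Several pathways had no call with the deposited values. These were the Hedgehog pathway with 8 genes tested (median 0.04), cilia and intraflagellar transport with 8 (0.03), the Mediator complex with 10 (0.09), the Hippo pathway with 4 (0.11), insulin and growth genes with 3 (0.05), and RNA-binding proteins and m6A writers with 10 (−0.05). The cilia genes ran only from −0.02 to 0.10. At the same total 2 Hedgehog, 3 cilia, 3 Mediator, 1 Hippo, 1 insulin and growth and 7 RNA-binding genes were called lower. Among 13 chromatin genes the methyltransferase gene *Ash1* (−0.28, adjusted p = 0.0222) and the remodeler gene *kismet* (−0.29, adjusted p = 0.00672) fell and none rose, and at the same total 10 of the 13 were called lower. Above 1000 counts, where 12 of the 13 lie, 31.2% of tested transcripts were called higher and 2.71% lower with the deposited values. At the same total 24.8% of that class were called lower.

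**Figure D5:**
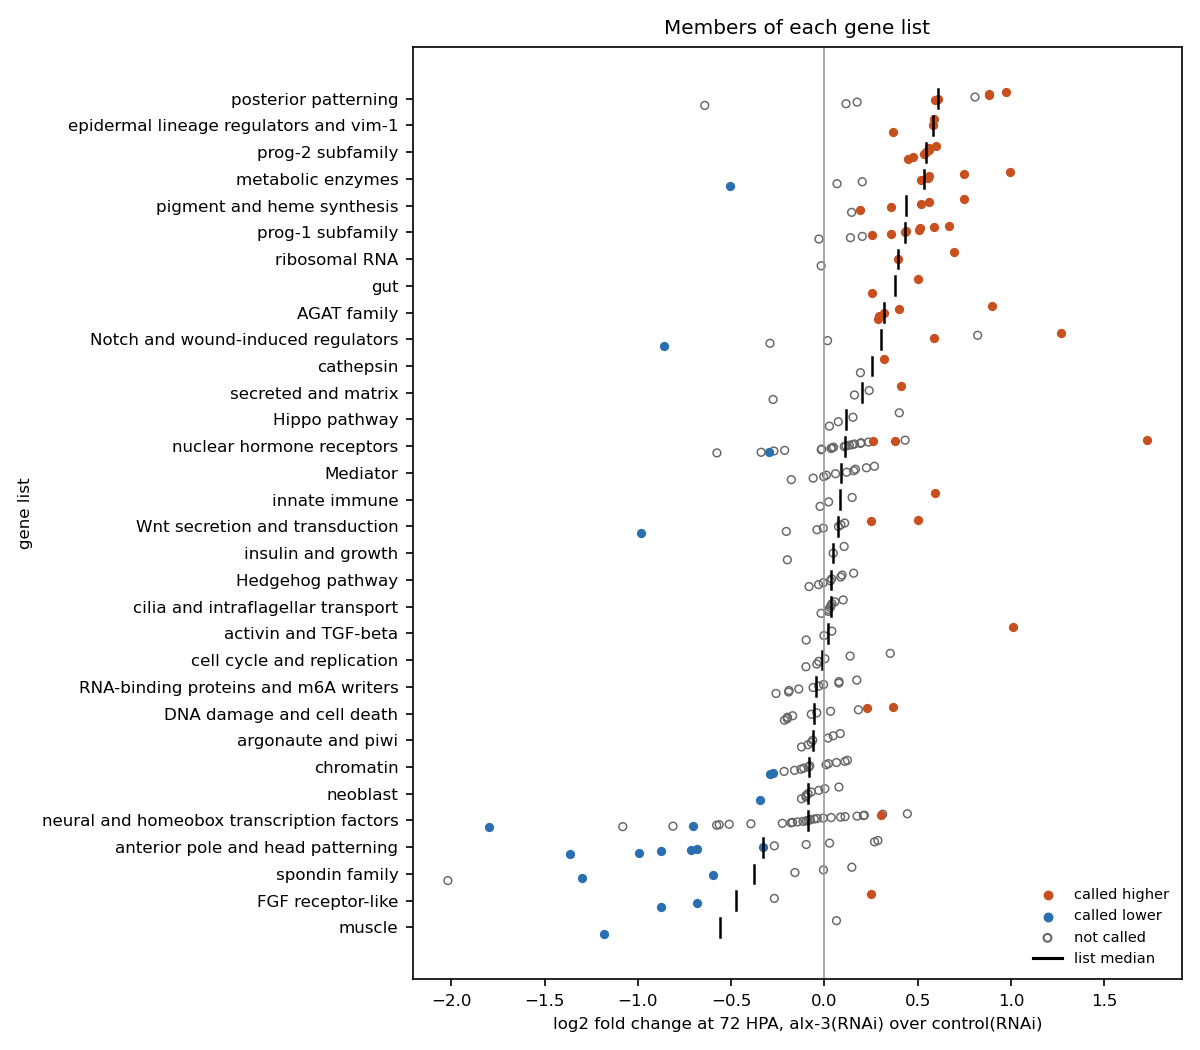
Log2 fold change at 72 HPA of every tested member of the 32 gene lists (points), sorted by list median (black bar). Filled orange points were called higher, filled blue points lower and open points not called, so that posterior genes, epidermal regulators, *prog-2* and metabolic genes sit at the top with medians of 0.54 to 0.61 and anterior genes near the bottom at −0.33. Some genes are on more than 1 list.

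The remaining lists held few genes each. For comparison, 10.5% of all tested transcripts were called higher and 2.62% lower, and above 1000 counts 31.2% and 2.71%. Both gut genes rose, *porcnA* (above) and the homeobox gene *NXK2.2* (0.26, adjusted p = 0.0145), the latter not at the same total or with quantile normalization. *cathepsin-L-1-2*, a lysosomal protease gene, rose from 205972 ± 6008 to 257313 ± 10953 (0.32, adjusted p = 0.00419), and its call ended at the same total and with quantile normalization, while *Cathepsin-L-1-1* was not called (0.19). Of 4 innate immune genes the Toll adaptor gene *MyD88-1* rose (1342 ± 28.0 to 2029.5 ± 161, 0.59, adjusted p = 0.00013). Of 10 tested DNA damage and cell death genes *p53* and the caspase activator gene *apaf1* (0.23, adjusted p = 0.0187) rose and none fell, and of 4 secreted and matrix genes *LOXL2*, a lysyl oxidase gene, rose (0.41, adjusted p = 0.00436). Of 4 FGF receptor-like genes *ndk* and *ndk-4* fell and *fgfrl-b* rose (0.25, adjusted p = 0.0208). Among 3 ribosomal RNA transcripts 2 were called higher, *16sRibo* (0.40, adjusted p = 0.0293) and 1 *ribo28s* transcript (0.69). Named genes on no list that were called were *pXW0030* (0.67), *klf_SmedASXL_005628* (0.56), *pXW0053* (0.46), *estrella* (0.42), a glial gene, and the GTPase gene *cdc42* (0.29), all higher, and the gap junction gene *innexin-1* (−0.45), lower.

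Larger changes belonged to transcripts without a gene name. SmedASXL_079289 had 11081, 12328 and 9640.05 counts in controls, against 1637, 1431 and 1529 after knockdown, 13.9% of control (−2.84, SE 0.0833, adjusted p = 9.55e-12). The spread within either group was small beside the gap, and the effects at the 4 other times lay between −3.08 and −2.67. SmedASXL_014121 had 134, 214 and 131 counts in controls and was listed at 0 in all 3 knockdown libraries. It thus reached the count minimum through the controls alone. Its effect at 24 HPA was −2.96 (SE 1.78, adjusted p = 0.408, limma), not called. It has no tested effect at 0.5 or 48 HPA or in intact animals. Of the rises, SmedASXL_011551 went from 31.8, 27.4 and 12.6 to 234, 202 and 237 (3.27, SE 0.266, adjusted p = 1.77e-06), with effects of 3.05 to 3.54 at the other times. SmedASXL_018870 went from 17.7, 25.2 and 10.7 to 207, 119.8 and 118 (3.01, SE 0.297, adjusted p = 1.35e-05). It rose at 24 HPA (2.50) and 48 HPA (1.75) too, but was at −0.47 at 0.5 HPA and −0.78 in intact animals, neither called. SmedASXL_079289 and SmedASXL_011551 were thus called at 0.5, 24, 48 and 72 HPA and in intact animals, and SmedASXL_018870 at 24, 48 and 72 HPA.

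Of the 82 called transcripts that have a name or are given here by ID, 55 stayed called whichever library was left out and 27 did not. Beside those given above, the calls that ended without at least 1 library were *16sRibo* (0.33 to 0.50 over these fits), *prog-1* (0.16 to 0.33), *prog1c* (0.32 to 0.52), *prog-2* (0.39 to 0.50), *prog2g* (0.44 to 0.62), *AGAT2* (0.24 to 0.33), *AGAT3* (0.24 to 0.34), *ets-1* (0.17 to 0.20), *DLL-2* (0.22 to 0.38), *NXK2.2* (0.22 to 0.30), *apaf1* (0.20 to 0.25), *fgfrl-b* (0.22 to 0.27), *cdc42* (0.25 to 0.37), *ROR* (0.22 to 0.31) and *nhr-22* (0.34 to 0.41) among the rises. Among the falls they were *AK1* (−0.58 to −0.39), *Ash1* (−0.34 to −0.19), *kismet* (−0.34 to −0.25), *nhr-14* (−0.37 to −0.23) and *innexin-1* (−0.60 to −0.38). All kept their direction in these fits.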

How the data were processed

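RNA was extracted from intact animals or tail fragments with Trizol and made into poly(A)-selected TruSeq libraries, in biological triplicate. Per the labels and the methods, reads were trimmed with Trimmomatic 0.39, assigned to the Smed_ASXL transcripts with Salmon 1.4.0 and scaled with DESeq2 1.30.1, separately at each time. The deposited signal is therefore a count after scaling, given by transcript for each library. Column names say RPKM, but low values lie near whole multiples of 1 step per library, so they were read as normalized counts. Tables of the authors' own comparisons (fold changes and p-values) were not used. Column names were matched to samples, with 0 left over.

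Values were tested as log2(normalized count + 1) with limma 3.58.1 (trend, two-sided) in R 4.3.3, for transcripts with at least 10 counts in at least 3 of 6 libraries, with Benjamini-Hochberg adjustment over all tested. The effect at 72 HPA was compared with other times by interaction over 12 libraries, 0.5 HPA being added after seeing the data. No library is shared between times. Of values up to 20 reads, 95.8% to 100.0% per library lay within 0.1 of a whole read, so edgeR 4.0.16 and DESeq2 1.42.0 were also run on reads recovered in this way, as approximations, since the step varies slightly between transcripts. The scripts were tested on simulated data. Gene names came from 271 transcript IDs, *alx-3* included by the ID in the methods.

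Named genes were *alx-3*, called members of 32 lists and defining members that were not called, 10 transcripts with a name for each of rise and fall, taken by size among calls with groups apart, 4 without a name taken alike at a mean of at least 50 counts, and those with a name whose effect differed between times. Members and lists were chosen with earlier results of these data known.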

Additional observations from a re-analysis of the deposited data

Results flagged for a closer look

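The following named transcripts were singled out because the effect of *alx-3* knockdown at 72 HPA differed from that at another time in a limma interaction test (Benjamini-Hochberg adjusted p under 0.05). Values are the log2 fold change at 72 HPA minus that at the other time. No outlier test was made, since groups of 3 libraries are too small for one.

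Against 0.5 HPA the difference was 3.30 for *lectin-like*, 1.29 for *AGAT5*, 1.03 for *tr5_12233*, 0.95 for *runx-2*, 0.88 for *wntP-2*, 0.83 for *Fzd-d*, 0.78 for *sp5*, 0.71 for *teashirt*, 0.60 for *ribo28s_SmedASXL_012104*, 0.42 for *spondin_SmedASXL_008552* and 0.40 for *ets-1*. *lectin-like* was not called at 72 HPA (0.24, adjusted p = 0.792), where its groups overlapped, and was −3.06 at 0.5 HPA.

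Against 24 HPA the difference was 2.22 for *nhr-2*, 1.21 for *tr5_12233*, 1.02 for *wntP-2*, 0.93 for *sp5*, 0.92 for *Fzd-d*, 0.69 for *teashirt*, 0.64 for *DLL-2*, 0.61 for *soxP-3*, 0.59 for *wnt11-1* and 0.41 for *FoxF1*. *DLL-2* was called lower at 24 HPA (−0.34, adjusted p = 0.0188) and higher at 72 HPA (0.30).

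Against intact animals it was 1.28 for *teashirt*, 1.17 for *runx-2*, 1.11 for *rapunzel-1*, 0.91 for *tr5_12233*, 0.85 for *sp5*, 0.62 for *albino* and 0.47 for *mex3-3*, and −1.29 for *prog-2*. *mex3-3* was not called at 72 HPA (0.00, adjusted p = 0.977) and was lower in intact animals (−0.47, adjusted p = 0.0270).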

How the results depend on the processing

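The 4371 calls (3495 higher, 876 lower) became 7473 (5426 and 2047) with sample quality weights, 40 (9 and 31) without a variance trend, and 397 (148 and 249) with a change of at least 2-fold required. Leaving out 1 library at a time gave 1911 to 8117 calls, 1609 to 6072 higher and 295 to 2045 lower. The same total per library gave 1072 higher and 3998 lower, the same with ribosomal RNA left out 1301 and 3186, and quantile normalization 1825 and 1671. Pseudocounts of 0.5 and 5, no filter, a mean of at least 50, edgeR and DESeq2 stayed within 1.5 times for the number of calls.

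Differences of effect from 24 HPA fell from 100 to 45 at the same total and 51 with quantile normalization. Those from 48 HPA went from 31 to 0 with each of these. The sign turned for *Bcat-1* (−0.13 at the same total, −0.10 with ribosomal RNA left out too, −0.12 with quantile normalization), *wntP-3* (−0.0907, −0.0606 and −0.0131), *albino* (−0.0614 and −0.0312 with the first and second of these) and *ets-1* (−0.0161 at the same total). On the deposited values *ets-1* was the only one of these called, and at the same total *Bcat-1* was, as lower (adjusted p = 0.0487). Summed counts, ribosomal RNA share and the *alx-3* level kept direction throughout. The cause of these changes was not tested.

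The labels number the replicates of both groups 1 to 3. Deviations of same-numbered libraries had correlations of 0.0197, −0.0849 and −0.0229, and those of other pairs ran from −0.0631 to 0.0833. These values cannot decide whether the numbers pair the samples, because deviations from a mean of 3 libraries are tied to each other. With the replicate block, 3670 transcripts were called at 72 HPA, and 119 differences of effect from 48 HPA.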

Other observations

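A set of transcripts changed in opposite directions at neighbouring times. Of the 148 transcripts called at least 2-fold higher at 72 HPA, 35 were at least 4-fold lower in *alx-3(RNAi)* at 48 HPA, and 27 of these were called there. Their median log2 fold change was 1.74 at 72 HPA, −4.01 at 48 HPA, 0.68 at 24 HPA, 0.52 at 0.5 HPA and 0.11 in intact animals. In intact animals 1 of the 35 was called. Over the set, the median normalized count at 48 HPA was 176, 1148 and 2937 in controls 1 to 3 and 113, 24.3 and 78.5 after knockdown, so that it differed widely among the controls. At 72 HPA it was 239.98, 127 and 77.5 in controls and 572, 307 and 378 after knockdown. None of the 35 has a gene name in its ID. The set was chosen after its values were seen, for its difference between these times, so that difference is a description with no test.

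At 72 HPA, 11 transcripts were called higher while their count in *alx-3(RNAi)* replicate 1 was over 3 times that in both other knockdown libraries. No called rise had replicate 2 or 3 of *alx-3(RNAi)* in that place.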
